A study of Mus musculus with 10 samples.

Results

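Cells of the embryonic mouse cortex that carried the first of 2 shRNAs against Chd8, which codes for an ATP-dependent nucleosome remodeler, were compared with cells that carried a control shRNA, by RNA sequencing. The comparison holds 6 of the 10 libraries of the series, 3 control and 3 knockdown, numbered 10, 11 and 12 in each group, and was chosen by the table that names this shRNA. Of the 23235 genes in that table, 11291 averaged 1 FPKM or more across the 6 libraries and were tested. Plasmids were introduced into radial glia by in utero electroporation at embryonic day 13, and at embryonic day 15 the GFP-positive cells were sorted from cortices of 3 to 5 embryos pooled for each replicate. Both groups were treated alike apart from the shRNA, control or Chd8. The mouse strain, the promoter that drives the shRNA and GFP, and the control sequence are not stated in these sources.

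Radial glia line the ventricle of the cortex and divide to renew themselves or to give rise to intermediate progenitors and neurons. Notch signalling between neighbouring cells keeps them in the progenitor state, proneural factors such as Neurog2 drive them toward neurons, and the newborn cells leave the cycle, migrate outward and grow axons. CHD8 belongs to the CHD remodelers, and mutations in its gene are a known cause of autism. A sort at embryonic day 15 of cells electroporated at embryonic day 13 holds both the progenitors that keep the plasmid and the neurons born from them, so that a level in a bulk library reflects both how many cells of a type were sorted and how much RNA each holds. In these libraries fewer cells of a type and less RNA per cell cannot be told apart.

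The levels are FPKM, counts of sequenced fragments corrected for transcript length and library size, so levels of different genes may be set side by side. Absolute depth is unknown, and relative depth, read from low values, lay between 0.959 and 1.4 with control replicate 10 as 1. Small RNA genes, with symbols that start Mir or Sno, took 6.52% to 44.5% of a library's FPKM total, with the highest share in control replicate 10. On the first principal component, with 38.7% of the variance, all controls had scores above 0 and all knockdown libraries scores below 0, but control replicate 11 lay nearest to the knockdown libraries at 1.57, against 32.1 and 23.4 for control replicates 10 and 12. Where 3 values are given for a group they are in the order of replicates 10, 11 and 12, and a mean is followed by its SD over the 3 libraries.

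The target of the shRNA was lower in every knockdown library. Chd8 stood at 3.59, 3.3 and 4.02 FPKM in the controls and 2.09, 1.84 and 1.92 FPKM with the shRNA. No knockdown value reached the lowest control, and the mean was 53.6% of control (log2 fold change −0.65, SE 0.117, adjusted p = 0.0213 by limma, exact two-sided permutation p = 0.1, the smallest that 3 against 3 libraries allow). The limma call held without control replicate 11 and was lost without each of the other 5 libraries in turn, at adjusted p up to 0.0829.

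Of the 11291 genes, 434 rose (3.84%) and 581 fell (5.15%), together 8.99%, at an adjusted p under 0.05 by limma, and 3389 had an unadjusted p under 0.05. Falls outnumbered rises among weakly expressed genes, and rises outnumbered falls among strongly expressed ones. Of 2779 genes with a mean of 1 to 5 FPKM 2.27% rose and 5.79% fell, while of 1081 genes with at least 100 FPKM 4.72% rose and 1.76% fell. From 20 FPKM upward, with 4641 genes, 8.94% changed, 5.54% upward and 3.4% downward. Of all tested genes 18.6% were higher in every knockdown library than in every control, and 17.1% were lower. Fold changes were above 0 for 5979 of all tested genes and below 0 for 5312. The shares of the gene lists below are set beside those of all tested genes without a test. The same-numbered libraries varied together, and with the replicate number as a block (called the replicate block below) 11% rose and 10.7% fell, 21.7% together. Counts of list members with the replicate block below are to be read beside these larger shares. After rescaling to equal totals without the small RNA genes, which moved the median log2 fold change of all genes from 0.02 to −0.10, 19.7% of the changed genes rose, against 42.8% before. Numbers of changed genes were 238, 1883 and 239 when control 10, 11 or 12 was left out and 201, 88 and 292 when knockdown 10, 11 or 12 was. The call held without each library in turn for 78 genes, 18 that rose and 60 that fell.

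**Figure D1:**
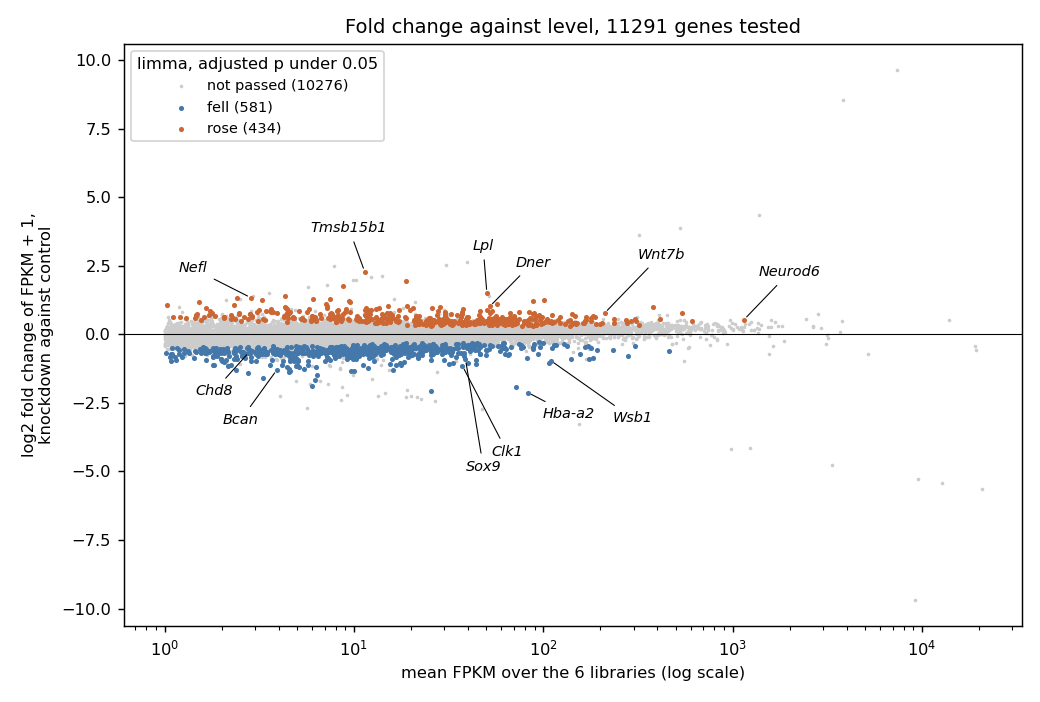
Log2 fold change of FPKM + 1 (knockdown against control, y axis) against the mean FPKM over the 6 libraries (x axis, log scale) for 11291 tested genes, with 434 genes that rose in orange, 581 that fell in blue and the rest in grey. Points above 20 FPKM that rose outnumber those that fell, the reverse of the left side of the plot, and the grey points at very large fold changes are genes whose libraries vary too much to pass.

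**Figure D2:**
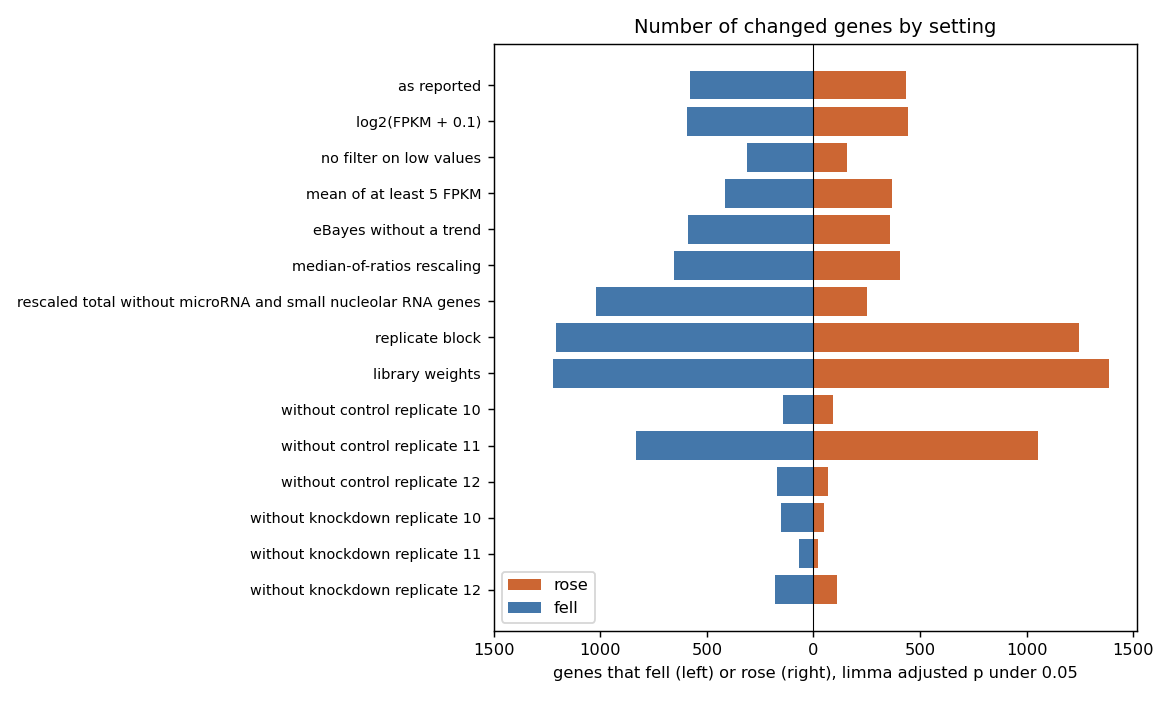
Number of genes that rose (orange, right of 0) or fell (blue, left of 0) at a limma adjusted p under 0.05, as reported and under each other setting. The count was lowest without knockdown replicate 11 (88) and highest with library weights (2610).

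Genes of radial glia, the stem cells that were electroporated, fell more often than they rose. Of 56 tested genes of this list 15 fell, 1 rose and 40 did not pass, so that 28.6% changed, against 8.99% of all tested genes. A fold change below 0 was found for 45 of the 56 (median log2 fold change −0.38, against 0.02 for all tested genes). Sox9, a transcription factor that maintains the stem cells, was measured at 50.4, 46.9 and 55.8 FPKM in the controls and 27.1, 24.9 and 27.9 FPKM with the shRNA. The knockdown libraries were close together and far under the lowest control (log2 fold change −0.91, SE 0.0925, adjusted p = 0.00677). Other transcription factors that fell included Sox2 (−0.68 on the log2 scale), the patterning factors Emx2 (−0.77), Lhx2 (−0.46) and Pax6 (−0.42), Rfx4 (−0.74) and Id4 (−0.73), an inhibitor of basic helix-loop-helix factors. Nr2f1, an orphan nuclear receptor that sets cortical areas, was the member that rose (22.5 ± 1.02 to 31.4 ± 4.01 FPKM, 0.45), and Nfib, a factor of glial and neuronal maturation, went from 212 ± 3.23 to 266 ± 27.4 FPKM without passing (adjusted p = 0.0697, 0.0435 with the replicate block).

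Genes for the membrane, extracellular matrix and metabolism of radial glia moved the same way as their transcription factors, with 7 of 29 that fell and 0 that rose. Gas1, a membrane-anchored co-receptor for Sonic hedgehog, was at 105, 99.3 and 115 FPKM in the controls and 56.1, 56 and 60.8 FPKM with the shRNA. Its knockdown libraries differed little among themselves and lay below every control (log2 fold change −0.87, SE 0.085, adjusted p = 0.00677). The proteoglycan Bcan had the largest fall among them, from 5.94 ± 0.741 to 1.88 ± 0.832 FPKM (−1.30, adjusted p = 0.0166). Smaller falls were those of Ttyh1 (−0.61), Hopx (−0.76), the endothelin receptor Ednrb (−0.60), Phgdh, which opens serine synthesis (−0.45), and Prom1, the apical membrane protein prominin (−0.40). The 2 most abundant members did not pass: Fabp7, the brain lipid-binding protein, went from 875 ± 158 to 779 ± 283 FPKM, and Dbi from 674 ± 130.1 to 488 ± 157 FPKM, with overlapping groups for both. Over the whole list, 8 with all genes above 0 kept, 28 with the replicate block and 30 with library weights fell, and the call of Hopx was lost with the block. Rises numbered 3 with the replicate block and 3 with library weights. Falls numbered 7, 20 and 5 without control 10, 11 or 12 and 4, 3 and 6 without knockdown 10, 11 or 12, and of the calls named those of Sox9 and Gas1 held without each library in turn.

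In Notch signalling, effectors, a ligand and modulators were among the changed genes. Notch receptors are cut after binding a ligand on a neighbouring cell, and the freed fragment joins RBPJ on DNA to switch on Hes genes, which in turn repress proneural genes. The base sequence before the start of Hes5, a Notch effector that fell, is shown because it holds the RBPJ motif TGGGAA (either strand, in capitals) at 2 places. The 250 bases before the start come from RefSeq on GRCm38.p6 (chr4:154960673-154960922, plus strand), 5′ to 3′. This motif is in 21.6% of the 32851 promoters of the same length in the table, and a match is a description of the sequence, not a bound site.
Hes5: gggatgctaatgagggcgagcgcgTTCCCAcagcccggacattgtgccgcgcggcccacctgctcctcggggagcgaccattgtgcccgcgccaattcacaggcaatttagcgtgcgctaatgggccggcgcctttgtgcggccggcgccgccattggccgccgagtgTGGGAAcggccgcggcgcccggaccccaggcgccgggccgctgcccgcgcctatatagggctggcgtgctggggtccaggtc
Levels of Hes5 were 43.6, 42.4 and 46.4 FPKM in the controls and 27.7, 21.4 and 25.5 FPKM with the shRNA. The highest knockdown value was far under the lowest control (log2 fold change −0.81, SE 0.106, adjusted p = 0.0105). Hes1, another effector, stood at 20.1, 27.3 and 24.7 FPKM in the controls and 12.5, 10.1 and 10.5 FPKM with the shRNA, again with no overlap and with a knockdown mean of 46% of control (log2 fold change −1.05, SE 0.133, adjusted p = 0.0103). The effectors Nrarp (36.1 ± 5.8 to 26.7 ± 2.24 FPKM, adjusted p = 0.0718, 0.0326 with the replicate block) and Hey1 (42.8 ± 3.12 to 35.9 ± 3.62 FPKM, adjusted p = 0.139) had lower means but did not pass.

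Of 3 tested ligands Dll1 fell (27.4 ± 1.85 to 16.7 ± 3.27 FPKM, −0.69, adjusted p = 0.0248), and Dll3 had a lower mean (39.7 ± 0.614 to 32.7 ± 0.703 FPKM, adjusted p = 0.0536, 0.0322 with the replicate block). None of 3 receptors passed (1 fell with the replicate block), with Notch1 at 8.69 ± 2.91 to 6.22 ± 0.699 FPKM (adjusted p = 0.29), nor did Rbpj (25.3 ± 5.05 to 21.2 ± 3.15 FPKM, adjusted p = 0.371). Numb, which holds Notch back in the daughter cell that inherits it, fell (7.98 ± 0.699 to 5.03 ± 0.591 FPKM, −0.58, adjusted p = 0.0292). Against this direction Dner, a Notch-like transmembrane protein of neurons, rose to more than its highest control in every library, with 38.4, 35 and 29.3 FPKM in the controls and 64.6, 75 and 71.3 FPKM with the shRNA. Its groups did not overlap and its knockdown mean was 205% of control (log2 fold change 1.02, SE 0.113, adjusted p = 0.00777). Over the 24 tested genes of the list 4 fell and 1 rose, 20.8% in all against 8.99% of all tested genes (median −0.25). Falls numbered 2 with all genes above 0 kept, 7 after rescaling to equal totals without small RNA genes, 8 with the replicate block and 8 with library weights. They were 2, 7 and 2 without control 10, 11 or 12 and 3, 2 and 2 without knockdown 10, 11 or 12. The calls of Hes1, Hes5 and Dner held without each library in turn, and those of Dll1 and Numb did not.

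Intermediate progenitors, the dividing daughters of radial glia that make most cortical neurons, showed no common direction. Of 27 genes 4 fell and 2 rose, 22.2% in all against 8.99% of all tested genes. The median log2 fold change was −0.03, with 12 members above 0 and 15 below. The proneural factor Neurog2 was at 272, 289.8 and 272 FPKM in the controls and 199, 175 and 184 FPKM with the shRNA. All its knockdown libraries were below all controls (log2 fold change −0.58, SE 0.0863, adjusted p = 0.0149). Gadd45g, a stress-inducible protein that these cells switch on as they leave the cycle, had 197, 228 and 254 FPKM in the controls and 130.1, 124 and 112 FPKM with the shRNA, also without overlap (log2 fold change −0.88, SE 0.112, adjusted p = 0.0103). Hes6, which counters Hes1 (−0.56, adjusted p = 0.02), and Mfap4, a matrix protein (−0.45, adjusted p = 0.0236), fell too. By contrast Cxcl12, a chemokine that these cells release, rose from 60.2 ± 5.7 to 89 ± 4.82 FPKM (0.56, adjusted p = 0.0193), and Tmem158 from 24.7 ± 2.35 to 35.1 ± 1.48 FPKM (0.50, adjusted p = 0.0236). Rises and falls together came to 11 with the replicate block. Rises numbered 0, 2 and 0 without control 10, 11 or 12 and 0, 0 and 0 without knockdown 10, 11 or 12. Falls numbered 4, 4 and 2 without control 10, 11 or 12 and 2, 1 and 3 without knockdown 10, 11 or 12, and the call of Gadd45g held without each library in turn.

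**Figure D3:**
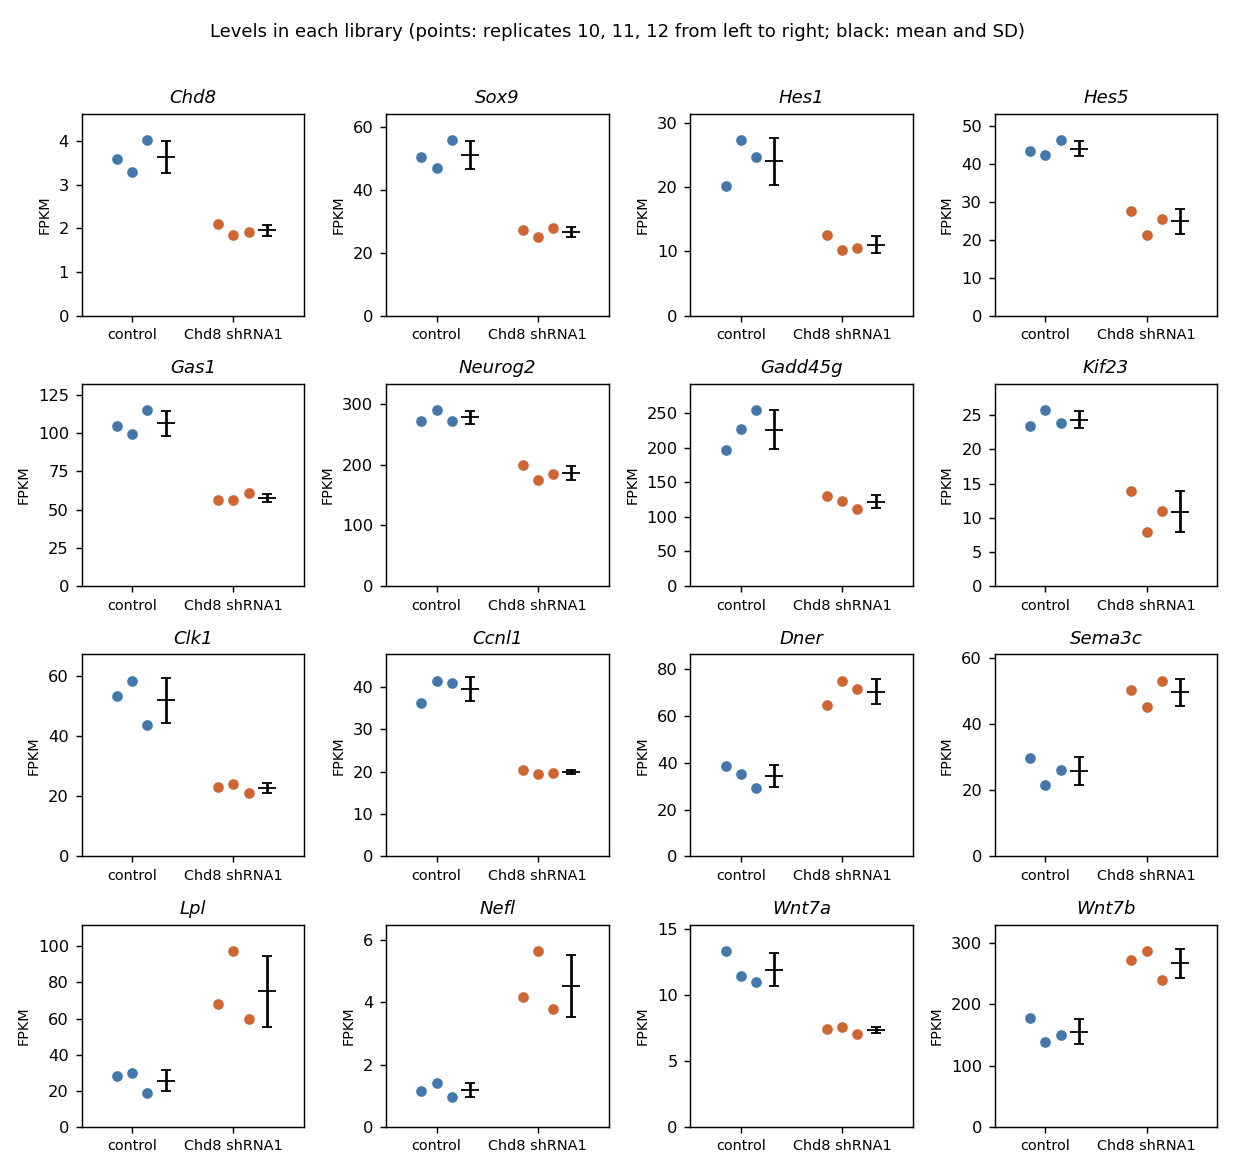
FPKM (y axis, from 0) of 16 genes in each library, with control replicates 10, 11 and 12 in blue, knockdown replicates 10, 11 and 12 in orange and the mean and SD of each group in black. The groups do not overlap in any of the 16 panels, and Lpl runs from 59.6 to 97.4 FPKM with the shRNA.

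Of 34 tested transcription factors of neurons 5 rose (14.7%, against 3.84% of all tested genes) and 0 fell. Their median was 0.13, and 0.01 after rescaling to equal totals without small RNA genes, where all genes had −0.10. With the replicate block 10 rose and 4 fell, where 11% of all tested genes rose and 10.7% fell. Among factors of early neuronal differentiation, Neurod6 rose from 936 ± 64.6 to 1362 ± 127 FPKM (0.54, adjusted p = 0.0411), Zfp238, a repressor also called Zbtb18, from 507 ± 15 to 708 ± 44.1 FPKM (0.48, adjusted p = 0.0292), and Mef2c, a factor of synapse development, from 11.1 ± 1.87 to 19.9 ± 3.06 FPKM (0.79, adjusted p = 0.0236). In the deep layers, Sox5 of subplate and corticofugal neurons rose (72.4 ± 6.42 to 116 ± 21.8 FPKM, 0.66, adjusted p = 0.0289), while Fezf2, a selector of subcerebral neurons, went from 108 ± 14.4 to 135 ± 20.9 FPKM and did not pass (adjusted p = 0.176, 0.0229 with the replicate block). The deep-layer factor Foxp2 had a lower mean without passing (4.58 ± 0.675 to 3.18 ± 0.365 FPKM, adjusted p = 0.0869, 0.0474 with the replicate block). Of 9 upper-layer factors 1 rose and 0 fell. Rises numbered 0 with all genes above 0 kept, and falls numbered 1 with library weights and 1 after rescaling to equal totals. Taking out libraries, rises were 2, 5 and 0 without control 10, 11 or 12 and 0, 0 and 1 without knockdown 10, 11 or 12, and no call of a factor in this list held without each library.

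The neuronal cytoskeleton had rises and no falls. Of 44 tested genes 9 rose (20.5%, against 3.84% of all tested genes) and 0 fell. Of the 44, 26 (59.1%, against 18.6% of all tested genes) were higher in every knockdown library than in every control. The median was 0.35 (0.21 after rescaling to equal totals without small RNA genes, where all genes had −0.10). Nefl, the light neurofilament chain of growing axons, was at 1.16, 1.4 and 0.956 FPKM in the controls and 4.17, 5.65 and 3.77 FPKM with the shRNA. Its lowest knockdown library was well above its highest control (log2 fold change 1.34, SE 0.158, adjusted p = 0.0102), and the medium chain Nefm rose with it (3.54 ± 0.826 to 6.03 ± 0.532 FPKM, 0.65, adjusted p = 0.0429). Ina, the most abundant of the 3 tested neurofilament genes, did not pass (107 ± 28.5 to 112 ± 20.9 FPKM, adjusted p = 0.83), and its groups overlapped. Of 25 microtubule genes 5 rose: Dclk1 (36.5 ± 3.59 to 56.3 ± 3.52 FPKM, 0.62, adjusted p = 0.0168) and Dcx (0.49), relatives that bundle microtubules in migrating neurons, the tubulin-binding Stmn4 (76.5 ± 9.15 to 119.5 ± 11.3 FPKM, 0.64, adjusted p = 0.0203), Dpysl2, which promotes axon growth (0.41), and Mtap2, a dendritic microtubule protein (0.50). Tubb3, the neuronal beta-tubulin, was higher in every knockdown library but did not pass (787 ± 143 to 1145 ± 210.0 FPKM, adjusted p = 0.0965, 0.018 with the replicate block). Tuba1a, a major tubulin gene of embryonic brain, is listed at 0 in all 6 libraries, so no level can be read for it. In the growth cone, Gap43, a membrane phosphoprotein of growing axons, rose from 141 ± 28.9 to 225 ± 36 FPKM (0.68, adjusted p = 0.0478), and Tmsb15b1, a thymosin beta peptide that binds actin, had 1.65, 5.31 and 2.04 FPKM in the controls and 35.6, 13.9 and 9.85 FPKM with the shRNA (2.29, adjusted p = 0.0281). The values of Tmsb15b1 spread widely in the knockdown libraries, and near-identical copies of this gene make them uncertain. Rises over the list numbered 4 with all genes above 0 kept, 20 with the replicate block and 20 with library weights. They numbered 3, 18 and 2 without control 10, 11 or 12 and 1, 1 and 4 without knockdown 10, 11 or 12, and of these calls that of Nefl held without each library.

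Of 57 tested genes of axon guidance and adhesion 9 rose (15.8%, against 3.84% of all tested genes) and 0 fell. Their median was 0.14, and 0.01 after rescaling to equal totals without small RNA genes. The medians of all tested genes were 0.02 and −0.10. Among 17 ligands, Sema3c, a secreted semaphorin that attracts cortical axons, was at 29.8, 21.5 and 26 FPKM in the controls and 50.3, 45.1 and 53.1 FPKM with the shRNA. All knockdown values lay above all controls, at 192% of control on average (log2 fold change 0.93, SE 0.125, adjusted p = 0.0113). The repellents Slit1 (5.99 ± 1.09 to 9.76 ± 1.23 FPKM, 0.63, adjusted p = 0.0408) and 2610109H07Rik, an older symbol of draxin (6.55 ± 0.443 to 9.89 ± 0.795 FPKM, 0.53, adjusted p = 0.0281), rose as well. Of 23 receptors 2 rose, the netrin receptor Unc5a (0.63) and the semaphorin co-receptor Plxna4 (0.58). Nrp1, the semaphorin-binding partner of plexins, was lower in every knockdown library without passing (60.2 ± 3.7 to 45.7 ± 5.51 FPKM, adjusted p = 0.0514, 0.040 with the replicate block). Of 17 adhesion genes 4 rose, Flrt3 (43.3 ± 4 to 69.5 ± 4.81 FPKM, 0.67, adjusted p = 0.0131), Chl1 (19.4 ± 2.9 to 36.4 ± 10.2 FPKM, 0.85, adjusted p = 0.0339), Cdh13 (65.9 ± 12.2 to 113 ± 22.6 FPKM, 0.77, adjusted p = 0.036) and Ncam1 (67.3 ± 7.24 to 103 ± 18.4 FPKM, 0.59, adjusted p = 0.0386), all cell surface proteins of growing neurites. With other settings rises numbered 2 with all genes above 0 kept, 5 after rescaling to equal totals without small RNA genes, 15 with the replicate block and 14 with library weights. Falls numbered 2 with the replicate block, 3 with library weights, 2 with median-of-ratios rescaling and 2 after rescaling to equal totals. Leaving out a library gave rises of 3, 9 and 2 without control 10, 11 or 12 and 2, 1 and 2 without knockdown 10, 11 or 12 and 1 fall without control replicate 11, and the call of Sema3c held in all of these.

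Synaptic and channel genes rose more often than they fell. Of 64 tested genes 12 rose and 2 fell, 21.9% in all against 8.99% of all tested genes. Of the 64, 30 (46.9%, against 18.6% of all tested genes) were higher in every knockdown library than in every control (median 0.24). Vesicle release had 5 rises among 18 genes. Syt4, a calcium-sensor relative on dense vesicles, was at 39.5, 39.5 and 32.8 FPKM in the controls and 82.2, 53.5 and 72.3 FPKM with the shRNA, with knockdown replicate 11 the lowest of its group but above every control (log2 fold change 0.86, SE 0.156, adjusted p = 0.0219). The complexins Cplx1 (26.7 ± 1.04 to 48.1 ± 10.9 FPKM, 0.80, adjusted p = 0.0211) and Cplx2 (0.59), the vesicle protein Syp (51.5 ± 1.38 to 76.6 ± 10.3 FPKM, 0.56, adjusted p = 0.0241) and the calcium sensor Syt1 (0.63) rose, while Slc17a6, which loads vesicles with glutamate, fell (29.4 ± 1.27 to 22.8 ± 1.33 FPKM, −0.36, adjusted p = 0.0407). Of the glutamate receptor subunits, the kainate subunit Grik3 rose (1.63 ± 0.372 to 2.86 ± 0.194 FPKM, 0.56, adjusted p = 0.0439) and the AMPA subunit Gria2 fell (72.5 ± 9.32 to 51.4 ± 4.21 FPKM, −0.48, adjusted p = 0.0379). All 8 tested GABA and glycine receptor genes had fold changes above 0, and Gabra5 (0.913 ± 0.129 to 2.03 ± 0.38 FPKM, 0.66, adjusted p = 0.0292) and Glra2 (7.41 ± 1.05 to 11.2 ± 0.666 FPKM, 0.54, adjusted p = 0.0345) passed. Fxyd7, a small regulator of the sodium pump, rose (1.39). At the postsynaptic side Camk2b (8.13 ± 2.49 to 15.7 ± 2.82 FPKM, 0.90, adjusted p = 0.0437), a calcium-dependent kinase subunit, and the adhesion protein Nlgn1 (0.47) rose. Rises numbered 5 with all genes above 0 kept, 6 after rescaling to equal totals without small RNA genes, 21 with the replicate block and 20 with library weights. Falls came to 4 with the block, 5 with library weights and 4 after rescaling. By library rises numbered 2, 12 and 0 without control 10, 11 or 12 and 0, 2 and 3 without knockdown 10, 11 or 12, so that no rise in this list held without each of the libraries.

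**Figure D4:**
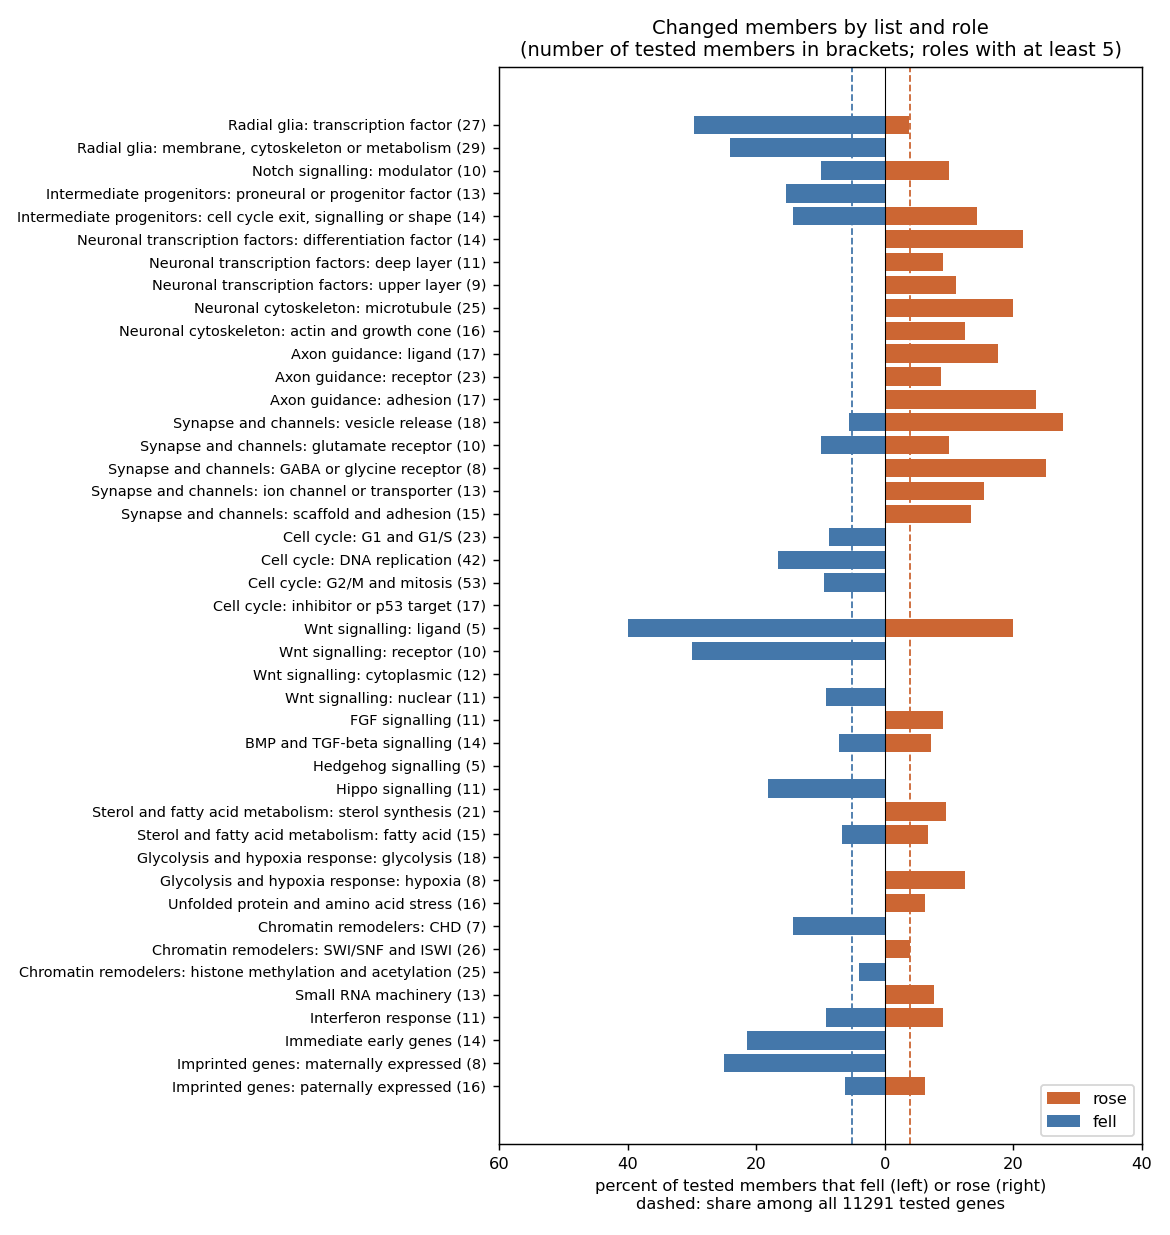
Percent of the tested members of each list and role shown that rose (orange, right of 0) or fell (blue, left of 0), with dashed lines at the shares of all 11291 tested genes, 3.84% and 5.15%. Roles with few tested members and the interneuron and erythroid markers are left out. Bars of radial glia and DNA replication extend to the left and those of the cytoskeleton, axon and synapse lists to the right.

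Cell cycle genes, which the series title names among the study's themes, had falls and no rises as tested. Of 135 tested genes 14 fell (10.4%, against 5.15% of all tested genes) and 0 rose. A fold change below 0 was found for 117, and 60 (44.4%, against 17.1% of all tested genes) were lower in every knockdown library than in every control (median −0.30). Among 42 genes of DNA replication 7 fell. These were Tk1 of thymidine salvage (36.9 ± 2.15 to 23.5 ± 2.51 FPKM, −0.64, adjusted p = 0.0178), the helicase subunits Mcm3 (−0.59) and Mcm6 (−0.47), the kinase Cdc7 that fires origins (14.1 ± 0.673 to 8.76 ± 1.11 FPKM, −0.64, adjusted p = 0.0203), the licensing factor Cdt1 (−0.48) and the polymerase subunits Pold1 (22.1 ± 1.57 to 14.3 ± 1.67 FPKM, −0.59, adjusted p = 0.0227) and Pola2 (−0.37). Of 53 mitotic genes 5 fell, led by Kif23, a kinesin that builds the midzone of dividing cells, at 23.5, 25.7 and 23.9 FPKM in the controls and 13.8, 7.94 and 10.9 FPKM with the shRNA. Knockdown replicate 11 was the lowest and no knockdown library came near the controls (log2 fold change −1.12, SE 0.171, adjusted p = 0.0165). Cdca3 (−0.72), Incenp of the chromosomal passenger complex (33.5 ± 3.52 to 21.4 ± 4.6 FPKM, −0.64, adjusted p = 0.0408), Kif20b (−0.60) and the kinetochore protein Nuf2 (−0.48) fell with it. Of 23 genes of G1 and S phase entry, Myc (−0.56) and E2f2 (2.56 ± 0.699 to 1.05 ± 0.426 FPKM, −0.80, adjusted p = 0.049) fell, and Cdk6 was lower in every knockdown library without passing (8 ± 0.463 to 5.44 ± 0.947 FPKM, adjusted p = 0.057, 0.044 with the replicate block). None of 17 inhibitors and p53 targets passed, and 2 rose with the replicate block. Pmaip1, a p53 target that promotes cell death (1.08 ± 0.288 to 2.31 ± 0.616 FPKM, adjusted p = 0.0514, 0.0288 with the replicate block), was higher in every knockdown library. Falls numbered 7 with all genes above 0 kept, 34 after rescaling to equal totals without small RNA genes and 41 with the replicate block. Rises came to 3 with the block, 3 with library weights and 1 without the intensity trend. Leaving out libraries gave falls of 2, 20 and 4 without control 10, 11 or 12 and 8, 1 and 3 without knockdown 10, 11 or 12 and 2 rises without control replicate 11, and the call of Kif23 held in each case.

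E2F factors switch on replication genes at the start of S phase by binding their promoters. Mcm6 is shown because the 250 bases before its start hold the E2F motif TTGGCGC at 2 places (in capitals). The motifs TTCCCGC and TTGGCGC, on either strand, are in 5.62% of all promoters in the table. The bases are from RefSeq on GRCm38.p6 (chr1:128359706-128359955, minus strand), 5′ to 3′ on the strand of the gene.
Mcm6: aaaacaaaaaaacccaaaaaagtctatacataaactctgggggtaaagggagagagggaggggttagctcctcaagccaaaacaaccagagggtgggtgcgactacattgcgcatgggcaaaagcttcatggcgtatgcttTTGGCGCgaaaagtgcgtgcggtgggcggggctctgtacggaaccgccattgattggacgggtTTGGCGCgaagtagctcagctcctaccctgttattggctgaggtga
Its levels were 69.1, 68.6 and 78.2 FPKM in the controls and 52.5, 45.3 and 57.7 FPKM with the shRNA. Both groups were narrow and did not overlap (log2 fold change −0.47, SE 0.106, adjusted p = 0.037), but the call was lost without each library other than control replicate 11, with all genes above 0 kept and without the intensity trend.

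Wnt signalling, the other theme of the title, changed in both directions at its ligands. Wnt ligands bind Frizzled receptors, which leads to stable beta-catenin and to target genes switched on through TCF and LEF factors. Of 42 tested genes 7 fell and 2 rose, 21.4% in all against 8.99% of all tested genes (median −0.20). Wnt7b, a ligand of deep-layer neurons, was at 178, 138 and 149.8 FPKM in the controls and 273, 287 and 240.4 FPKM with the shRNA, whereas Wnt7a, its close relative made by progenitors, was at 13.3, 11.4 and 11 FPKM in the controls and 7.41, 7.57 and 7.08 FPKM with the shRNA. Neither gene's groups overlapped, and the log2 fold changes were 0.78 (SE 0.117, adjusted p = 0.0153) and −0.62 (SE 0.107, adjusted p = 0.02). The ratio of Wnt7b to Wnt7a level was 13.3, 12.1 and 13.7 in the controls and 36.8, 37.9 and 34 with the shRNA. Wnt5a, a ligand of the pathway branch without beta-catenin, fell (1.65 ± 0.365 to 0.48 ± 0.129 FPKM, −0.84, adjusted p = 0.0203). All 10 tested receptors had fold changes below 0, and the Frizzled receptors Fzd8 (38.9 ± 6.01 to 24.4 ± 3.03 FPKM, −0.65, adjusted p = 0.0287) and Fzd9 (−0.54) and Reck, part of the receptor complex for Wnt7 ligands (1.89 ± 0.306 to 0.815 ± 0.248 FPKM, −0.68, adjusted p = 0.0341), passed. The secreted antagonist Sfrp2 fell (−0.58) and the membrane antagonist Apcdd1 rose (12 ± 2.26 to 19.5 ± 0.942 FPKM, 0.68, adjusted p = 0.027). In the cytoplasm 0 of 12 genes passed (4 fell with the replicate block), with Ctnnb1, which codes for beta-catenin, at 441 ± 48.3 to 451 ± 19.7 FPKM (adjusted p = 0.851). Of the nuclear factors Tcf7l1 fell (10.8 ± 1.78 to 6.82 ± 1.05 FPKM, −0.59, adjusted p = 0.0451), and Tcf7l2 and Lef1 did not pass (adjusted p = 0.126 and 0.204). Falls numbered 2 with all genes above 0 kept, 13 with the replicate block and 11 with library weights. By library falls numbered 0, 11 and 1 without control 10, 11 or 12 and 0, 0 and 3 without knockdown 10, 11 or 12, and no Wnt call held without each of them.

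Other growth factor pathways changed at single members. Of 41 tested genes of FGF, BMP, Hedgehog and Hippo signalling 3 fell and 2 rose, 12.2% in all against 8.99% of all tested genes (median −0.19). Cyr61, a secreted target of the Hippo pathway factor YAP, was at 21.1, 22.7 and 19.4 FPKM in the controls and 11.4, 9.61 and 11.5 FPKM with the shRNA, without overlap (log2 fold change −0.90, SE 0.107, adjusted p = 0.0103). Jub, the older symbol of the LIM protein Ajuba that restrains Hippo kinases, fell as well (12.8 ± 0.894 to 7.11 ± 1.03 FPKM, −0.78, adjusted p = 0.0182). The BMP antagonist Nog fell (11.2 ± 1.44 to 6.65 ± 0.903 FPKM, −0.67, adjusted p = 0.0258), Smad1, which carries BMP signals to the nucleus, rose (69.2 ± 3.37 to 85.3 ± 2.59 FPKM, 0.30, adjusted p = 0.0484), and Fgf15 rose from a low level (1.1 ± 0.131 to 3.55 ± 1.3 FPKM, 1.08, adjusted p = 0.0222). All 5 tested Hedgehog genes had fold changes below 0 and 0 passed (2 fell with the replicate block), with Gli2, a transcription factor of the pathway, at 4.36 ± 1.51 to 2.69 ± 0.823 FPKM (adjusted p = 0.2, 0.025 with the replicate block). Falls numbered 11 with the replicate block and 12 with library weights. They numbered 1, 9 and 2 without control 10, 11 or 12 and 2, 1 and 2 without knockdown 10, 11 or 12, the call of Cyr61 held without each library, and that of Smad1 was lost in 5 of the 8 other settings.

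Among metabolic and stress genes single members passed. Changed were 11.1% of the lipid genes, 3.85% of the glycolysis and hypoxia genes and 6.25% of the stress genes, against 8.99% of all tested genes. Lpl, which releases fatty acids from lipoproteins, had the largest rise of the changed genes above 20 FPKM, with 28.1, 29.9 and 18.9 FPKM in the controls and 68.2, 97.4 and 59.6 FPKM with the shRNA. Its knockdown libraries varied widely, yet all lay above every control, and their mean was 293% of control (log2 fold change 1.51, SE 0.214, adjusted p = 0.0131). Of 21 genes of sterol synthesis Fdft1 (113 ± 8.54 to 158 ± 19.7 FPKM, 0.47, adjusted p = 0.0385) and Fdps (0.41) rose, and Cpt1a, which admits fatty acids to mitochondria, fell (6.42 ± 0.698 to 3.7 ± 0.689 FPKM, −0.66, adjusted p = 0.0308). The lipid list had a median of 0.08, and −0.05 after rescaling to equal totals without small RNA genes. The medians of all tested genes were 0.02 and −0.10. Hmgcs1 is listed at 0 in all 6 libraries. Of 18 glycolysis genes 0 passed, and 1 fell with the replicate block. Ndrg1, a gene of the hypoxia response, rose (36.4 ± 12 to 77.5 ± 15.8 FPKM, 1.11, adjusted p = 0.0375), while Vegfa, its best known member, went from 10.1 ± 3.26 to 6.56 ± 1.38 FPKM (adjusted p = 0.16, 0.0248 with the replicate block). Asns, the asparagine synthetase of the amino acid stress response, rose (23 ± 1.73 to 37.7 ± 5.68 FPKM, 0.68, adjusted p = 0.0203), and the cystine carrier Slc7a11 was higher in every knockdown library without passing (9.32 ± 4.76 to 23.4 ± 9.06 FPKM, adjusted p = 0.0602, 0.0342 with the replicate block). With the replicate block 4 of the 16 unfolded protein and amino acid stress genes rose, against 11% of all tested genes. Of these metabolic and stress calls that of Lpl held without each library in turn.

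Of 58 tested chromatin genes other than Chd8, 2 fell and 1 rose, 5.17% in all against 8.99% of all tested genes, and these shares were not tested against each other. Chd7, a relative of the same subfamily, fell from 10.8 ± 2.24 to 5.77 ± 0.574 FPKM (−0.79, adjusted p = 0.0236). Setd5 fell (9.45 ± 1.09 to 6.38 ± 0.526 FPKM, −0.50, adjusted p = 0.0421), and Smarcc1, a core subunit of the BAF complex, rose (58.2 ± 6.23 to 77.2 ± 3.68 FPKM, 0.40, adjusted p = 0.0407). These 3 calls were each lost without every library other than control replicate 11. With the replicate block 7 rose and 3 fell, where 11% of all tested genes rose and 10.7% fell. Because an shRNA is processed by the cell's small RNA machinery, its 13 genes were read as well. Tarbp2, a partner of Dicer, rose (31.2 ± 5.43 to 48.9 ± 5.36 FPKM, 0.64, adjusted p = 0.0323) and 0 fell (1 with the replicate block). This was 7.69% of the 13, against 8.99% of all tested genes. Of 11 tested interferon response genes, which double-stranded RNA can switch on, Cmpk2, a mitochondrial nucleotide kinase, was at 4.05, 4.24 and 3.21 FPKM in the controls and 9.44, 14.2 and 9.59 FPKM with the shRNA and rose without overlap (log2 fold change 1.30, SE 0.17, adjusted p = 0.0103). Irf9, a part of the interferon-activated transcription factor, fell (−1.28). Together these were 18.2% of the 11, against 8.99% of all tested genes. Fold changes were below 0 for 9 of the 11, and for 5312 of all 11291 tested genes.

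Immediate early genes, which cells switch on within minutes of stimulation or dissociation, had falls and no rises as tested. Of 14 tested members 3 fell (21.4%, against 5.15% of all tested genes) and 0 rose, and with the replicate block 5 fell and 1 rose. Nr4a2, a nuclear receptor that also marks subplate neurons, had 6.39, 5.99 and 6.35 FPKM in the controls and 4.07, 3.79 and 3.58 FPKM with the shRNA, with no overlap (log2 fold change −0.59, SE 0.105, adjusted p = 0.0207). Jun (77.9 ± 15.4 to 46.8 ± 3.1 FPKM, −0.71, adjusted p = 0.0245) and Ier2 (−0.49) fell too. The count of falls was 0, 4 and 1 without control 10, 11 or 12 and 0, 0 and 0 without knockdown 10, 11 or 12. Among 24 tested imprinted genes, which are expressed from the allele of a single parent, 3 fell and 1 rose. Together these were 16.7%, against 8.99% of all tested genes. Meg3, a maternally expressed non-coding RNA, was at 9.84, 9.49 and 10.5 FPKM in the controls and 2.12, 1.08 and 3.14 FPKM with the shRNA. Its controls were within a narrow band and all knockdown libraries were far below it (log2 fold change −1.87, SE 0.227, adjusted p = 0.0103). Blcap, whose transcript contains the imprinted gene Nnat within an intron, was at 60.9, 67.8 and 51.8 FPKM in the controls and 30.1, 26.8 and 26 FPKM with the shRNA, with no overlap (log2 fold change −1.09, SE 0.113, adjusted p = 0.007). Nnat itself went from 1975 ± 204 to 2929 ± 375 FPKM (adjusted p = 0.0724, 0.0347 with the replicate block). The use of strand in counting is not stated, so reads from the stretch where these genes overlap may not be told apart. Mest fell (75.2 ± 3.52 to 51.3 ± 4.53 FPKM, −0.55, adjusted p = 0.0189) and Usp29 rose (1.94 ± 0.144 to 3.15 ± 0.173 FPKM, 0.50, adjusted p = 0.036). The calls of Meg3 and Blcap held without each library, and falls of imprinted genes numbered 8 with the replicate block.

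The largest falls above 20 FPKM outside the blood genes were in Clk1, Blcap, Gsta4, Akirin2, Cwc22, Clk4, Wsb1, Ccnl1 and Ndrg2. Clk1 and Clk4 are kinases that phosphorylate SR splicing factors, Ccnl1 codes for cyclin L1, a partner of kinases that act in splicing, and Cwc22 is a spliceosome protein needed to place the exon junction complex. The promoters of Clk4 and Ccnl1 are shown because each holds the full cyclic AMP response element, the half-site TGACG joined to its reverse complement (in capitals, with a further half-site in Clk4). The half-site, on either strand, is in 17.8% of all promoters in the table and the full element in 1.55%. Both genes and the full element were chosen after levels and motifs were seen. The bases are from RefSeq on GRCm38.p6, 250 before each start, 5′ to 3′ (Clk4 chr11:51262864-51263113, plus strand, Ccnl1 chr3:65958250-65958499, minus strand).
Clk4: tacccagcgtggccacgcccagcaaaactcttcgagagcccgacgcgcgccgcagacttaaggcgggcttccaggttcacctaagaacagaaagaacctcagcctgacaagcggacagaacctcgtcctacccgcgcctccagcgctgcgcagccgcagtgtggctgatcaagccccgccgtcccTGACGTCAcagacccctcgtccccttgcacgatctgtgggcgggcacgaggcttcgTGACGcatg
Ccnl1: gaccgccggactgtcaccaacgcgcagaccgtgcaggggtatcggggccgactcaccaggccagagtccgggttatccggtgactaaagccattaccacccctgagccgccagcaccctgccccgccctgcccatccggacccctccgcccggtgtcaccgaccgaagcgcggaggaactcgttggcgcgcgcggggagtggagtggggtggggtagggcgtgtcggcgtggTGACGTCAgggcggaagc
Clk4 was at 45.3, 48.8 and 41.3 FPKM in the controls and 22.8, 21.4 and 20.6 FPKM with the shRNA, every control more than any knockdown library (log2 fold change −1.03, SE 0.0906, adjusted p = 0.00677). Ccnl1 was at 36.2, 41.5 and 40.9 FPKM in the controls and 20.5, 19.5 and 19.8 FPKM with the shRNA, with knockdown libraries that hardly differed (log2 fold change −0.95, SE 0.0852, adjusted p = 0.00677). Clk1, at 53.6, 58.6 and 43.9 FPKM in the controls and 23.1, 24.2 and 21 FPKM with the shRNA, and Cwc22, at 55.8, 53.8 and 53.6 FPKM in the controls and 27.8, 27.8 and 21.6 FPKM with the shRNA, also had no overlap (log2 fold changes −1.15 and −1.06, adjusted p = 0.00677 for both). The relatives that follow were chosen after these values were seen. Ccnl2 (60.2 ± 0.87 to 39.97 ± 1.87 FPKM, −0.58, adjusted p = 0.0103) and the CLK-binding protein gene Clasrp (22.1 ± 0.262 to 14 ± 0.33 FPKM, −0.63, adjusted p = 0.0103) fell, and so did Luc7l (−0.53) and Luc7l3 (−0.54) of the U1 particle. Clk2 had a lower mean without passing (20.5 ± 3.96 to 15.4 ± 0.998 FPKM, adjusted p = 0.121), and Clk3 stood at 47.2, 48.5 and 45 FPKM in the controls and 47.9, 49.6 and 43.3 FPKM with the shRNA, with groups that overlapped fully. A difference between the fold changes of Clk1 and Clk3 was not tested.

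Wsb1, a substrate receptor of a ubiquitin ligase, was at 156, 151 and 129 FPKM in the controls and 77.4, 69.9 and 74.6 FPKM with the shRNA. Akirin2, a nuclear factor that links transcription factors to chromatin remodeling and imports proteasomes, was at 144, 161 and 129 FPKM in the controls and 81.7, 62.3 and 62.9 FPKM with the shRNA. Neither had overlapping groups (log2 fold changes −0.96 and −1.06, adjusted p = 0.00677 and 0.0103). Ndrg2, which glial cells and their precursors express, had 54.7, 59.9 and 60.7 FPKM in the controls and 30.9, 29.3 and 30.1 FPKM with the shRNA and fell (−0.93, adjusted p = 0.00677), while its relatives Ndrg1 (above) and Ndrg3 (55.3 ± 4.84 to 75.6 ± 6.01 FPKM, 0.44, adjusted p = 0.0323, chosen after the values were seen) rose. Of 2 glutathione transferase genes, Gsta4 fell (43.5 ± 7.09 to 19.97 ± 2.66 FPKM, −1.08, adjusted p = 0.011) and Gstp1 rose (60.4 ± 19 to 140.1 ± 24.5 FPKM, 1.24, adjusted p = 0.0236), the latter with a near-identical copy in the genome that makes its value uncertain. Calls of Clk1, Clk4, Ccnl1, Cwc22, Wsb1, Akirin2, Ndrg2 and Gsta4 held without each library in turn and in each of the 8 other settings. The other large rises above 20 FPKM were in Sh3bgrl2, at 38, 36.1 and 32.3 FPKM in the controls and 67.3, 69.6 and 60.6 FPKM with the shRNA without overlap (log2 fold change 0.87, SE 0.0932, adjusted p = 0.00711), in the receptor phosphatase Ptpro of growing axons (13.8 ± 2.49 to 27.3 ± 2.39 FPKM, 0.95, adjusted p = 0.0124), in Bend6, a repressor that opposes Notch in neural cells (18.7 ± 4.21 to 38.2 ± 9.97 FPKM, 0.99, adjusted p = 0.0301), in Mc4r, a melanocortin receptor (17 ± 3.96 to 34.5 ± 10.7 FPKM, 0.97, adjusted p = 0.0407), in Tuba1c (0.98) and in BC002163 (1.21). Tuba1c shares long stretches with other tubulin genes, and its value is uncertain. Calls of Bend6, Mc4r, Tuba1c, BC002163, Gstp1 and Ptpro were each lost without at least 1 library, and that of BC002163 also with the replicate block.

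RNAs known as markers of other cell types differed between the groups as well. The sort for GFP would remove cells without the plasmid, and which cells carried these RNAs was not measured. Of 9 tested markers of GABAergic interneurons, which enter the cortex from the ventral forebrain, 5 fell (55.6%, against 5.15% of all tested genes, median −0.67). The summed level of the 23 listed markers was 48.4 to 57.8 FPKM in the controls and 29.6 to 33.5 FPKM with the shRNA. Sst, which codes for somatostatin, was at 9.77, 12.4 and 9.72 FPKM in the controls and 5.61, 4.75 and 5.57 FPKM with the shRNA, without overlap (log2 fold change −0.88, SE 0.128, adjusted p = 0.0138), and Dlx2 (3.36 ± 1.03 to 0.971 ± 0.477 FPKM), Dlx5 (1.61 ± 0.479 to 0.542 ± 0.162 FPKM), Lhx6 (1.79 ± 0.315 to 0.75 ± 0.0187 FPKM) and Calb2 (3.5 ± 1.26 to 1.01 ± 0.216 FPKM) fell from levels of a few FPKM. Falls of these markers numbered 1, 5 and 5 without control 10, 11 or 12 and 1, 0 and 1 without knockdown 10, 11 or 12. Reln, the signal of Cajal-Retzius cells, fell (3.11 ± 0.903 to 1.03 ± 0.283 FPKM, −1.01, adjusted p = 0.0226), and the 9 markers of these cells summed to 5.67 to 8.67 FPKM in the controls and 2.16 to 2.98 FPKM with the shRNA. Erythroid markers summed to 225 to 429 FPKM in the controls and 38.9 to 175 FPKM with the shRNA, with falls of the globin genes Hba-a2 (−2.12), Hbb-b2 (−2.07) and Beta-s (−1.92), whose calls were each lost without at least 1 library. Microglia markers overlapped between the groups, at 5.36 to 13 FPKM in the controls and 2.68 to 9.6 FPKM with the shRNA, and 0 of 4 tested passed (1 fell with the replicate block). No marker of oligodendrocyte precursors, endothelium and pericytes or meninges reached a mean of 1 FPKM. Ttr, the choroid plexus transthyretin, had 42.9 FPKM in knockdown replicate 10 and no more than 0.0716 FPKM elsewhere. Interneuron, Cajal-Retzius and erythroid markers thus moved with the groups beside the falls of radial glia and cell cycle genes, and their part in those falls was not tested.

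**Figure D5:**
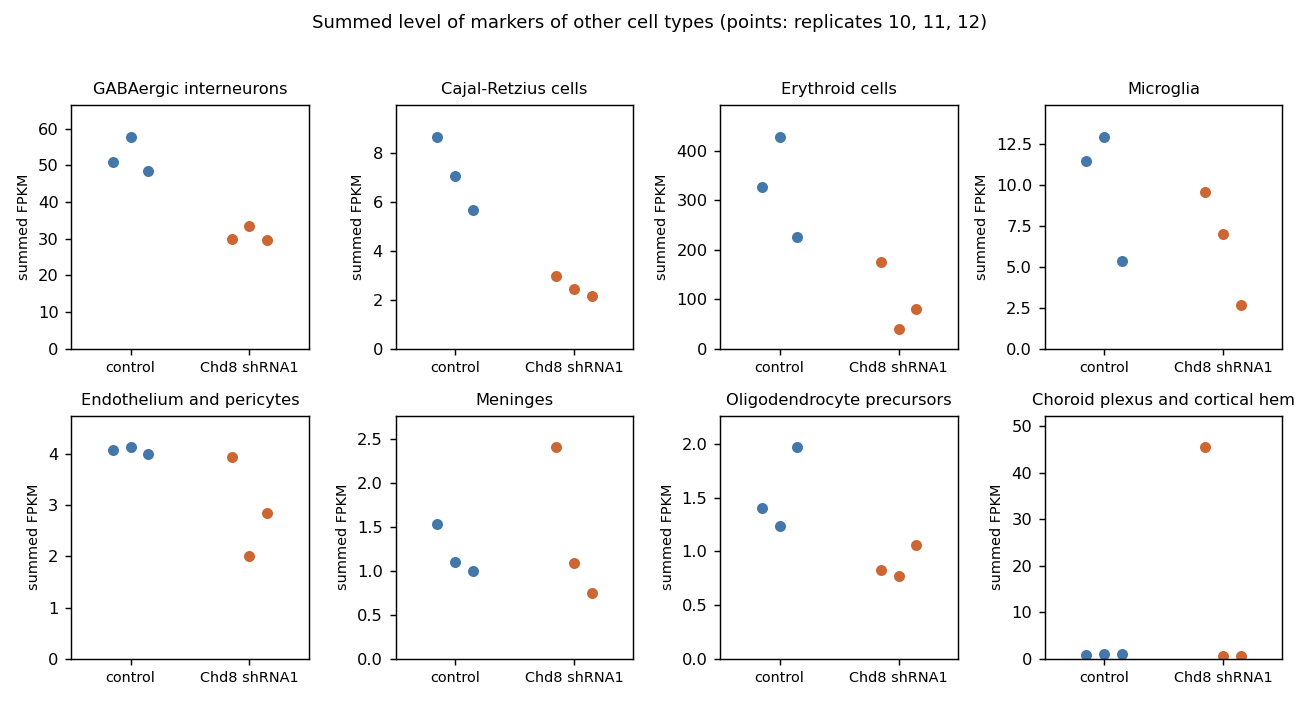
Summed FPKM (y axis, from 0) of the markers of 8 other cell types in each library, with controls in blue and knockdown libraries in orange, replicates 10, 11 and 12 from left to right in each group. Interneuron, Cajal-Retzius and erythroid sums are lower in every knockdown library than in every control, and the choroid plexus sum is high in knockdown replicate 10 alone.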

How the data were processed

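RNA was measured by sequencing of sorted GFP-positive cells, with 3 control and 3 knockdown libraries. Per the labels, an RNeasy Plus kit gave the RNA and a Clontech low-input kit the libraries. Named in the submitters' processing notes are TopHat2, Bowtie, Cufflinks 2.0.0, Cuffdiff and the mouse build mm9. Annotation, read filters and use of strand are not stated in these sources. The authors deposited FPKM values, 1 column per library. Cufflinks divides reads between overlapping genes and near-identical copies by estimate, and an exact 0 can be a failed estimate.

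Values were transformed to log2(FPKM + 1), which understates the change of low genes. Genes that averaged 1 FPKM or more across the 6 libraries entered a linear model of limma 3.58.1 under R 4.3.3 (lmFit, eBayes with an intensity trend, two-sided, 4 residual degrees of freedom). Adjusted p-values follow Benjamini and Hochberg over 11291 genes, and a gene changed at an adjusted p under 0.05. Groups were said not to overlap where all knockdown values were above, or all below, the controls. Only this table was used, since tables were normalized separately.

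Same-numbered libraries deviated together: the correlations of their deviations from the group means were 0.122, 0.242 and 0.193 for replicates 10, 11 and 12, and those of other pairs ran from −0.162 to −0.0133. The labels do not state that the numbers pair the libraries, and the descriptions number some libraries differently from the titles, whose numbers were used. The reported fit therefore had no block, and the fit with the replicate number as a block (2 residual degrees of freedom) was an alternative. The design text calls the replicates biological, as separate pools of embryos. Other settings were a pseudocount of 0.1, no filter, a minimum mean of 5 FPKM, no trend, rescaling by the median of ratios, rescaling to equal totals without genes whose symbols start Mir or Sno, library weights (limma arrayWeights), and leaving out each library. On simulated data of 11291 genes the fit recovered 83% of 100 genes with a log2 change of 1 and 30% of 100 with one of 0.5. It made 8 false calls among the genes left unchanged. The simulated libraries varied independently, without a shared replicate effect or a deviant library, so rates in the measured data may differ.

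Named were Chd8, the 12 largest rises and 12 largest falls among changed genes without overlap and with a mean of at least 20 FPKM, and from each list and role the changed members, the 3 with the smallest p and the 2 with the highest mean. The text gives a selection of the members that did not change. Some changed members enter the counts and are not reported here by name. The members and lists were chosen with earlier results of these data known. In the lists, symbols were later replaced by the older ones of the table, 1 misplaced member was taken out of the upper-layer list, and 3 members that the table does not name were dropped. Promoters are RefSeq sequences on GRCm38.p6, of which the 250 bases before the start were searched, and those shown were chosen after values and motifs were seen.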

Additional observations from a re-analysis of the deposited data

How the results depend on the processing

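The number of changed genes, 1015 as reported, was 470 with no filter on low values (156 rose, 314 fell), where more genes are tested, 2452 with the replicate block (1245 rose, 1207 fell) and 2610 with library weights (1388 rose, 1222 fell). After rescaling to equal totals without small RNA genes 251 rose and 1020 fell. Leaving out 1 library gave 88 to 1883 changed genes, 22 to 1051 that rose and 66 to 832 that fell, with the lowest counts without knockdown replicate 11 and the highest without control replicate 11. The cause of these differences in count was not tested. With a pseudocount of 0.1, a minimum of 5 FPKM, no intensity trend or median-of-ratios rescaling each count stayed within 1.5 times. The log2 fold change of Chd8 ran from −0.70 to −0.59 over the fits without 1 library. A sign differed from the reported one for 2 genes, neither of them changed. The log2 fold change of Clk3 was 0.0268 with library weights and ran from −0.0397 to 0.0553 without 1 library, and the log2 fold change of Ctnnb1 was −0.0958 after rescaling to equal totals and ran from −0.0541 to 0.102 without 1 library. Of the 160 other named fold changes 75 calls were lost with no filter, 18 after rescaling to equal totals and 17 without the trend, and the replicate block ended 2 calls and added 14. Leaving out knockdown replicate 11 ended 109 calls. Depth in fragments is unknown, so counting error could not be separated from other variation, and fold changes of 0.5 were often missed in simulated data.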

Other observations

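With the longest GENCODE transcript taken for each gene, the median length was 3413 bases for all tested genes, 3405 for those that rose and 3277 for those that fell. RefSeq promoters were matched for 79.6% of the tested genes, 75.3% of those that rose and 80.7% of those that fell. With fewer than 80% of the tested and of the risen genes covered, a comparison of motif shares between rising and falling genes is void, and none is given.

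The embryonic globin gene Hbb-y, chosen after its values were seen, was at 13.6, 16.1 and 12.3 FPKM in control replicates 10, 11 and 12 and at 0.807, 0.454 and 12.1 FPKM with the shRNA, so knockdown replicate 12 stood with the controls. Knockdown replicate 10 was the library with transthyretin.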
